A study of Mus musculus with 8 samples.

Results

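Catalytically active Ezh2 was compared with the catalytically dead Ezh2-Y726D in retinal ganglion cells (RGCs) after optic nerve crush (ONC), using lists of open chromatin peaks from ATAC-seq, an assay in which a transposase cuts accessible DNA. All groups were adult C57BL/6J mice. An AAV2 vector for wild-type Ezh2, for Ezh2-Y726D or for GFP was given 2 weeks before ONC, and cells were sorted 3 days after it, with 50000 cells per library. The 3 Ezh2 and 2 Ezh2-Y726D samples, 5 of 8 in the series, form the comparison, and the 3 GFP samples serve as a reference level. Both compared groups carried a vector, a crushed nerve and the same sort, and the labels set them apart only by the Ezh2 form delivered. Cells were sorted as CD90.2-positive and dye-negative, and CD90, encoded by Thy1, is also found on T lymphocytes. The labels do not state whether animals were pooled or whether samples came from separate animals, so p-values measure only the spread between these samples. Peaks of the 5 lists on chromosomes 1 to 19 that overlapped by 1 bp or more gave, once joined, 179650 regions.

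Ezh2 is the catalytic subunit of Polycomb repressive complex PRC2, which methylates histone H3 at lysine 27, and the resulting H3K27me3 mark is known for keeping developmental regulators such as the Hox genes silent. In the complex, Eed and Suz12 hold the enzyme in its active form. Adult neurons keep the mark at genes of other cell lineages. An ATAC-seq peak shows where DNA was open and carries no measure of H3K27me3 or of transcript.

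The promoters below are shown as examples of each class of region described in the results, and each overlaps a region that led its class by the order given with it. Sequences are from RefSeq for GRCm38.p6, 250 bases before to 50 bases after the annotated start, written 5′ to 3′ on the gene's strand. Capitals mark every match, on either strand, to the letters TGACTCA (AP-1), GAGGAAG (PU.1), TGTGGTT (RUNX), TAATCC (CRX and OTX), GGGCGG (GC box), TAATTA (homeobox) and CAGATG (E-box). Matches of different motifs may overlap, and a match is a description of the sequence only. First come the 4 promoters with the highest mean percentile among those with a peak in all Ezh2 lists and in neither Ezh2-Y726D list. B3galt5 encodes a galactosyltransferase, Ctla2b a protease inhibitor found in T lymphocytes, Hsh2d an adaptor of hematopoietic cells and F2rl2 a protease-activated receptor.
B3galt5, chr16:96273263-96273562, plus strand: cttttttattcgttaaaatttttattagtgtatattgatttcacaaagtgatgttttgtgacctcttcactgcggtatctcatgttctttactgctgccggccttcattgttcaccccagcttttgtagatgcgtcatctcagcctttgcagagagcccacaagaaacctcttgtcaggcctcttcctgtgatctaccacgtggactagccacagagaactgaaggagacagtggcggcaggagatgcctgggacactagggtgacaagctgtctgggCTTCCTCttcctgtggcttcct
Ctla2b, chr13:60897398-60897697, minus strand: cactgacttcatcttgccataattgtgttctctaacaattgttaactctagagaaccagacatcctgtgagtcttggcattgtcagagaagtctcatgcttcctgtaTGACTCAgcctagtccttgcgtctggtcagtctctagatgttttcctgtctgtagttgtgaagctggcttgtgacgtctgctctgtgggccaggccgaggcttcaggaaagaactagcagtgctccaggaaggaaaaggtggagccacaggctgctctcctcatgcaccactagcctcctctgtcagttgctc
Hsh2d, chr8:72189418-72189717, plus strand: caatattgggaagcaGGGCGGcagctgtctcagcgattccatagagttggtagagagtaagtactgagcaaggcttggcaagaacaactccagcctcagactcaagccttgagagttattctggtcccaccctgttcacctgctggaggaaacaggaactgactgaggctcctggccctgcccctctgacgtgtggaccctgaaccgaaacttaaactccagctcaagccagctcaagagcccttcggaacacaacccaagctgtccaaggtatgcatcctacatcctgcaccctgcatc
F2rl2, chr13:95696670-95696969, plus strand: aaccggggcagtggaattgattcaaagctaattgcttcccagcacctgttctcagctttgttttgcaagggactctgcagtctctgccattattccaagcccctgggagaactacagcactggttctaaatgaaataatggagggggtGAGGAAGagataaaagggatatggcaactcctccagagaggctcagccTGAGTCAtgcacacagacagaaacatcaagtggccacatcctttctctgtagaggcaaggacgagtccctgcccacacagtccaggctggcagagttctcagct
The next pair led the promoters with a peak in both Ezh2-Y726D lists and in no Ezh2 list. P2ry12 encodes an ADP receptor of microglia and platelets.
P2ry12, chr3:59262936-59263235, minus strand: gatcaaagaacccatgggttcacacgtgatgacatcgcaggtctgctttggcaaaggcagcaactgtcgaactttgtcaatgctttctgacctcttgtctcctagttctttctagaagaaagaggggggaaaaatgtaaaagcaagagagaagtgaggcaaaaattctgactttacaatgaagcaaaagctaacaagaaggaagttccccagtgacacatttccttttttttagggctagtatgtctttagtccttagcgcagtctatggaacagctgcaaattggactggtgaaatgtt
Cuzd1, chr7:131322243-131322542, minus strand: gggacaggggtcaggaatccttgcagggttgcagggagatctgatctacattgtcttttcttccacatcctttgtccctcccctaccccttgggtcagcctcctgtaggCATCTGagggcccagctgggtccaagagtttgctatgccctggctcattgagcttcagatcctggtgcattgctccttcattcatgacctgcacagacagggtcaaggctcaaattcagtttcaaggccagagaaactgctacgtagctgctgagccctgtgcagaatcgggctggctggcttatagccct
Dhrs9, a retinol dehydrogenase, and Ildr1, a membrane protein of tricellular junctions, had the largest rank differences in favor of Ezh2 among promoters open in all 5 samples.
Dhrs9, chr2:69380212-69380511, plus strand: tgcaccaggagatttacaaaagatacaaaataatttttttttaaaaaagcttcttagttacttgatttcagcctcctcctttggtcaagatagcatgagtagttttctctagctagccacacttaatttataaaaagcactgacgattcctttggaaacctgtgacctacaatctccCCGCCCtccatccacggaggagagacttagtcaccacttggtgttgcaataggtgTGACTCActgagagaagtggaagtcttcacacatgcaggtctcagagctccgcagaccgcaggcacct
Ildr1, chr16:36693728-36694027, plus strand: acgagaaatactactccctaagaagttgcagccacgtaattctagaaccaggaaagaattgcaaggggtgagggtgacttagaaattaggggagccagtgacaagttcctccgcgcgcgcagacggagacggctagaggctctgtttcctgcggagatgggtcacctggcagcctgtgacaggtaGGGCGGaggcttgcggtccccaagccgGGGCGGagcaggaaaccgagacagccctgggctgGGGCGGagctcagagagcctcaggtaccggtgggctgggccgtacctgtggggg
Slc6a16, an orphan member of the neurotransmitter transporter family, had the largest fall among gene end regions that overlapped a promoter.
Slc6a16, chr7:45240503-45240802, plus strand: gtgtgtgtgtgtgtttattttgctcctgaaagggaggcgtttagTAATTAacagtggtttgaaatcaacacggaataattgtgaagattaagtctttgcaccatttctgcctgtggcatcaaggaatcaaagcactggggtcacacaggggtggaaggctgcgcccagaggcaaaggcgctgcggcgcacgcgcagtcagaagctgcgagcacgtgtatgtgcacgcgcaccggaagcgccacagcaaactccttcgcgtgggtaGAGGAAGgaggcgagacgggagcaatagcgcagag

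The 2 groups had similar amounts of open chromatin. Lists held 124149, 125373 and 133536 peaks in the Ezh2 samples and 122258 and 126291 in the Ezh2-Y726D samples, and the groups overlapped. The means of 127686 ± 5103 (SD, n = 3) and 124274 ± 2852 (SD, n = 2) did not differ beyond the spread between samples (two-sided exact permutation test, p = 0.6). With 3 against 2 samples the smallest p of this test is 0.1. The lists give no read counts, so depth is unknown, but the background pileup recovered from the folds was 3.09, 3.33 and 3.59 reads in the Ezh2 samples and 2.39 and 3.12 in the Ezh2-Y726D samples. Ezh2-Y726D replicate 1 was the lowest of the 5, and the part of depth in the results below was not tested. Lists of 1 group shared more bases than lists of different groups. The Jaccard index, bases in both lists over bases in either, was 0.690 to 0.700 within Ezh2, 0.695 between the Ezh2-Y726D lists and 0.535 to 0.568 across the groups.

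In 16891 regions, 9.40% of the total, all 3 Ezh2 samples had a peak and both Ezh2-Y726D samples lacked one, and these are called Ezh2-only regions here. The reverse held for 11445 Y726D-only regions (6.37%). Because 1 group had 3 lists and the other 2, these shares are not expected to be equal, and they carry no test. Leaving out Ezh2-Y726D replicate 1 raised the Y726D-only count to 21525, and leaving out replicate 2 raised it to 19877, so this count rests on both lists. Ezh2-only regions were wider, with a median of 539 bp against 419 bp, and stronger. Strength was scored as the percentile of a region's fold enrichment, summit pileup over local background, within its own list. The median percentile was 43.6 for Ezh2-only and 31.4 for Y726D-only regions. Of the Ezh2-only regions 2030 had a mean percentile above 75, whereas 101 of the Y726D-only regions did. An Ezh2-only region needed a peak in 3 lists and joined them, a Y726D-only region in 2. Width and strength of the 2 classes are therefore not compared on equal terms, and the part of this difference was not tested.

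The differing regions lay away from gene ends. Of the Ezh2-only regions 5.80%, and of the Y726D-only regions 2.56%, lay within 1 kb of either end of a protein-coding gene, against 10.2% of all regions and 19.7% of the shared regions that were not called different. The median distance to the nearest gene end was 21.5 kb for Ezh2-only and 52.2 kb for Y726D-only regions. The GFP samples, a reference that was not used to choose these regions, differed in the 2 classes. All 3 GFP lists had a peak in 40.5% of Ezh2-only regions and none had one in 21.8%. For Y726D-only regions these shares were 18.4% and 38.6%, and over all regions they were 50.4% and 26.0%. Among the strong Ezh2-only regions 1575 of 2030 (77.6%) had a peak in all 3 GFP lists, and among the strong Y726D-only regions 93 of 101 (92.1%) did, so the order of the classes was the reverse among strong regions. Over all peaks rather than regions, 36.9% ± 0.37 (SD, n = 3) of Ezh2 peaks and 37.9% ± 0.34 (SD, n = 2) of Ezh2-Y726D peaks lay between genes. That difference reached the smallest p the exact permutation test allows (p = 0.1).

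**Figure D1:**
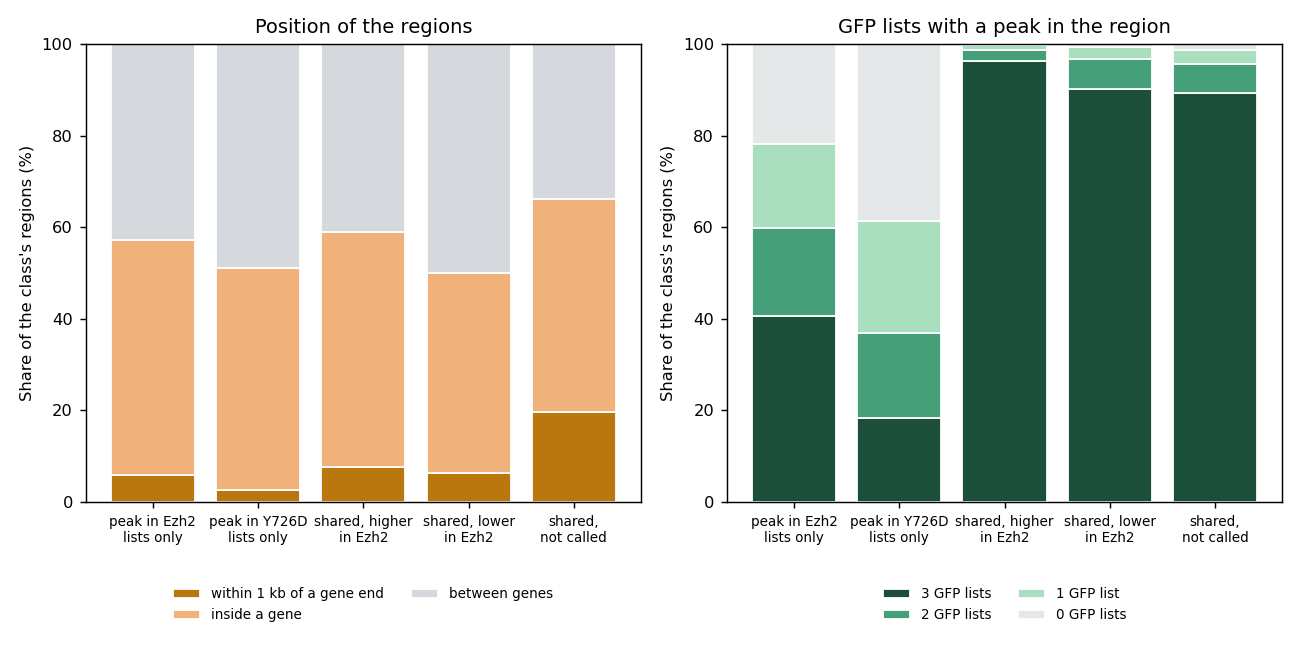
Share of the regions of each class (y axis, %) by position relative to protein-coding genes (left) and by the number of GFP lists with a peak (right). Gene ends made up 2.56% of Y726D-only regions and 19.7% of shared regions that were not called. All 3 GFP lists had a peak in 40.5% of Ezh2-only but 18.4% of Y726D-only regions, against 50.4% of all regions.

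Of the 2030 strong Ezh2-only regions 1051 lay between genes, 860 inside genes and 119 at gene ends. The region with the highest mean percentile lay 28961 bp from Dpp4, the gene of the membrane peptidase CD26 of T lymphocytes, at chr2:62440866-62441687, and had folds of 14.9, 13.7 and 14.7 in the Ezh2 samples and no peak in either Ezh2-Y726D sample. Its percentiles in the GFP samples were 94.5, 89.4 and 97.3. Regions nearest to Atxn1l, Tuba1c, Yae1d1 and Ralgps2 followed, with folds between 12.8 and 15.3 in the Ezh2 samples, and each had a peak in all 3 GFP lists. The leading Y726D-only regions were weaker. A region 25144 bp from Acad8, which encodes a mitochondrial acyl-CoA dehydrogenase, at chr9:26948678-26949309, had folds of 11.2 and 9.22 in the Ezh2-Y726D samples. Those nearest to or inside Actl7b, Tekt5, Fars2 and Mdga2 had folds of 7.97 to 10.7. All 5 had a peak in every GFP list as well, so the Ezh2 samples were the ones without a called peak.

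All 5 lists had a peak in 76271 regions, and these were ranked by fold within each list. Ranks were turned into normal scores, so a difference of 1 equals 1 SD of the ranks, and limma compared the groups. Ezh2 ranked higher than Ezh2-Y726D in 3964 regions (5.20%) and lower in 3706 (4.86%) at an adjusted p under 0.05. Without overlap between groups, 17919 regions (23.5%) ranked above and 17471 (22.9%) below in Ezh2. The calls rest on both dead-enzyme samples: limma called 0 regions without either Ezh2-Y726D replicate, when 7985 or 8280 higher and 7399 or 7621 lower regions had an unadjusted p under 0.05. In these fits the spread came from the Ezh2 samples alone, and the lone Ezh2-Y726D sample was assumed to vary like them. Called regions also lay away from gene ends, with 7.74% of the higher and 6.31% of the lower regions there.

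Dhrs9 had the largest difference. The region over its start, chr2:69380210-69380997, had folds of 10.8, 13.0 and 11.3 in the Ezh2 samples and 2.95 and 3.15 in the Ezh2-Y726D samples. In percentiles that is 94.7 to 98.5 against 4.66 and 10.1, with GFP at 90.0 to 96.4. The rank difference was 3.56 ± 0.23 (SE, limma adjusted p = 0.00638). A region 16442 bp from Tcf7, a transcription factor of T lymphocytes, at chr11:52299445-52300206, had folds of 11.3, 11.2 and 11.0 against 2.95 and 3.15. Its rank difference was 3.43 ± 0.18 (SE, limma adjusted p = 0.00638). Regions in Cops4, a subunit of the COP9 signalosome, near Actb, cytoplasmic actin, and in Psd3 differed by 3.47, 3.42 and 3.38. At gene ends the next largest were Ildr1 (2.85), Rdh1, a retinol dehydrogenase (2.36), Grap2, an adaptor of the T cell receptor (2.26), and Themis, a regulator of thymocyte selection (2.24). With 1 sample left out in turn the difference ranged from 3.41 to 3.70 at Dhrs9 and from 3.30 to 3.56 near Tcf7. In each of these 9 regions the lowest Ezh2 percentile lay above the highest Ezh2-Y726D percentile, as in 23.5% of all shared regions. They were chosen for large differences between the same samples, so this separation is a description.

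In the opposite direction Nfkbil1 led, an inhibitor-like gene in the major histocompatibility region. Its gene end region, chr17:35220469-35221113, had folds of 2.25, 2.67 and 2.54 in the Ezh2 samples and 8.75 and 7.09 in the Ezh2-Y726D samples. GFP samples were between them at percentiles of 47.2, 33.2 and 36.3. The rank fell by 2.98 ± 0.25 in Ezh2 (SE, limma adjusted p = 0.00698). Regions inside Mctp2, near Hspa1a and near Cd6, a T cell surface receptor, differed by -2.73, -2.62 and -2.60, and one far from Wac on chromosome 18 by -2.90. At gene ends Gna15, a G protein alpha subunit of hematopoietic cells, Cstdc6, Fam167b and Slc6a16 followed, with -2.17, -2.15, -2.15 and -1.94. The region near Hspa1a varied most among Ezh2 samples, with percentiles of 13.1, 45.4 and 0.664 against 89.4 in both Ezh2-Y726D samples.

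GFP samples mostly lay between the 2 enzyme forms in called regions. Of 3815 higher regions that also had peaks in the 3 GFP samples, the GFP mean percentile was between the group means in 3087 (80.9%), as it was in 2807 of 3339 lower regions (84.1%). In higher regions the median distance from GFP was 8.05 percentile points for Ezh2 and -25.4 for Ezh2-Y726D. In lower regions it was -17.4 points for Ezh2 and 14.5 for Ezh2-Y726D. Calling selected for distance between Ezh2 and Ezh2-Y726D, so these values are a description.

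**Figure D2:**
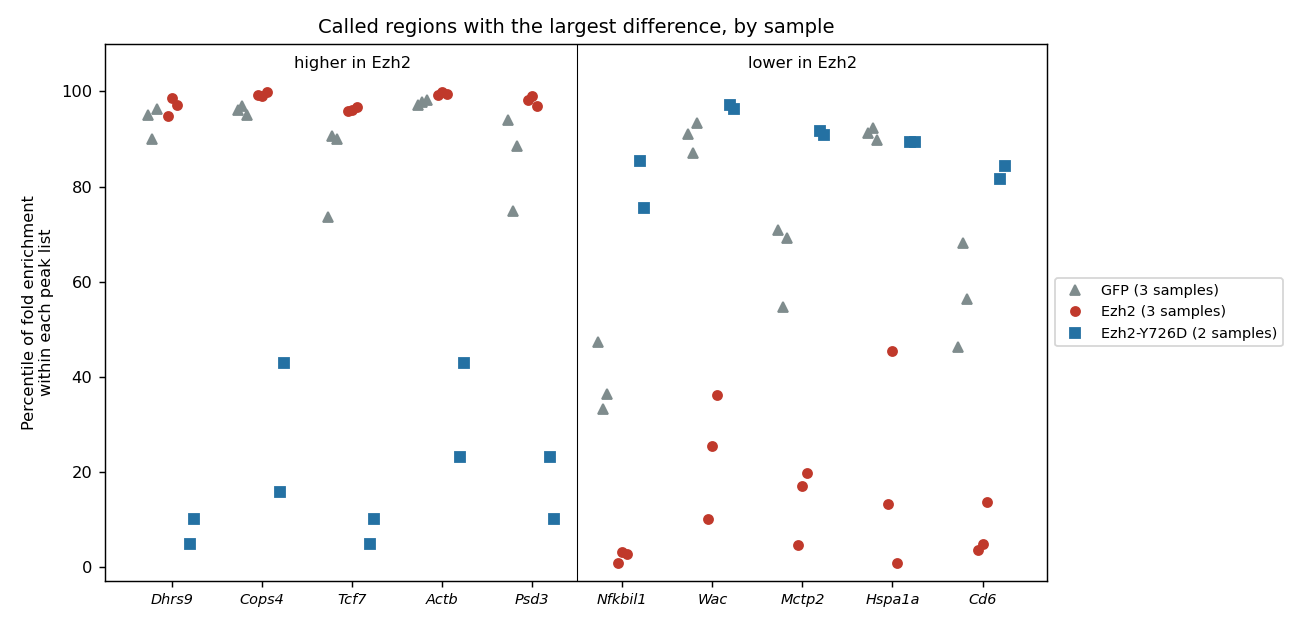
Percentile of fold enrichment within each peak list (y axis) for the 5 called regions with the largest difference in each direction, labeled by the overlapping or nearest gene. Points are samples, and at Dhrs9 the Ezh2 samples lie at 94.7 to 98.5 and the Ezh2-Y726D samples at 4.66 and 10.1.

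Cytotoxic lymphocyte, microglia, Hox and T cell genes held the highest shares of Ezh2-only regions among 23 gene lists. Over all regions 9.40% were Ezh2-only and 6.37% Y726D-only. Over the 110176 regions in or within 1 kb of a protein-coding gene, where all list regions lie, these shares were 8.77% and 5.30%. Of the shared regions among them 4.73% were called higher and 3.74% lower in Ezh2. In a bulk sample, fewer cells of a type and less accessibility per cell cannot be told apart. Of 54 regions at 16 genes of cytotoxic and natural killer lymphocytes 28 (51.9%) were Ezh2-only and 0 were Y726D-only. Regions with a peak numbered 44, 42 and 48 in the Ezh2 samples, 7 and 13 in the Ezh2-Y726D samples and 21, 23 and 31 in the GFP samples. For 9 of these genes, among them Gzma and Gzmb, serine proteases of killer granules, Prf1, perforin, and Nkg7, no region had a peak in either Ezh2-Y726D list. At 20 microglia and macrophage genes 28 of 66 regions (42.4%) were Ezh2-only, and 10 genes, including the integrin subunit Itgam, the adaptor Tyrobp and complement C1qb, had no peak in either Ezh2-Y726D list. The 20 T cell genes had 149 regions, of which 55 (36.9%) were Ezh2-only. The list of pan-leukocyte genes had 85 of 266 (32.0%), led by Fli1 with 10 and by Dock2, Ikzf1 and Lcp1 with 9 each. Shares were lower for Toll-like receptor genes (16 of 65, 24.6%) and antigen presentation (12 of 60, 20.0%). B cell genes (11 of 80, 13.8%) and interferon response genes (4 of 48, 8.33%) lay near the share over all regions.

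At gene ends the cytotoxic, T cell, microglia and pan-leukocyte lists separated every Ezh2 from every Ezh2-Y726D sample. Antigen presentation genes, with 15 in each Ezh2 sample against 15 and 14, and interferon response genes, with 14 in every sample, did not. Of the 16 cytotoxic genes 14, 15 and 15 had a peak at a gene end in the Ezh2 samples, 2 and 4 in the Ezh2-Y726D samples and 11, 9 and 13 in the GFP samples. All 20 T cell genes had one in each Ezh2 sample, against 10 and 9 in the Ezh2-Y726D samples. For microglia genes the numbers were 16, 15 and 17 against 6 and 6, and for 19 pan-leukocyte genes 18 in each Ezh2 sample against 7 and 10. Each of these differences had the smallest p the exact permutation test allows (p = 0.1, or 0.2875 after Benjamini-Hochberg adjustment over the 23 lists), as had smaller ones for the Toll-like receptor, B cell, bipolar cell and Hox lists. GFP samples had more of these genes open than Ezh2-Y726D samples in all 4 leukocyte lists, so the dead-enzyme samples stood below both other groups. The share of leukocytes among sorted cells was not measured, and its part in these results was not tested.

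**Figure D3:**
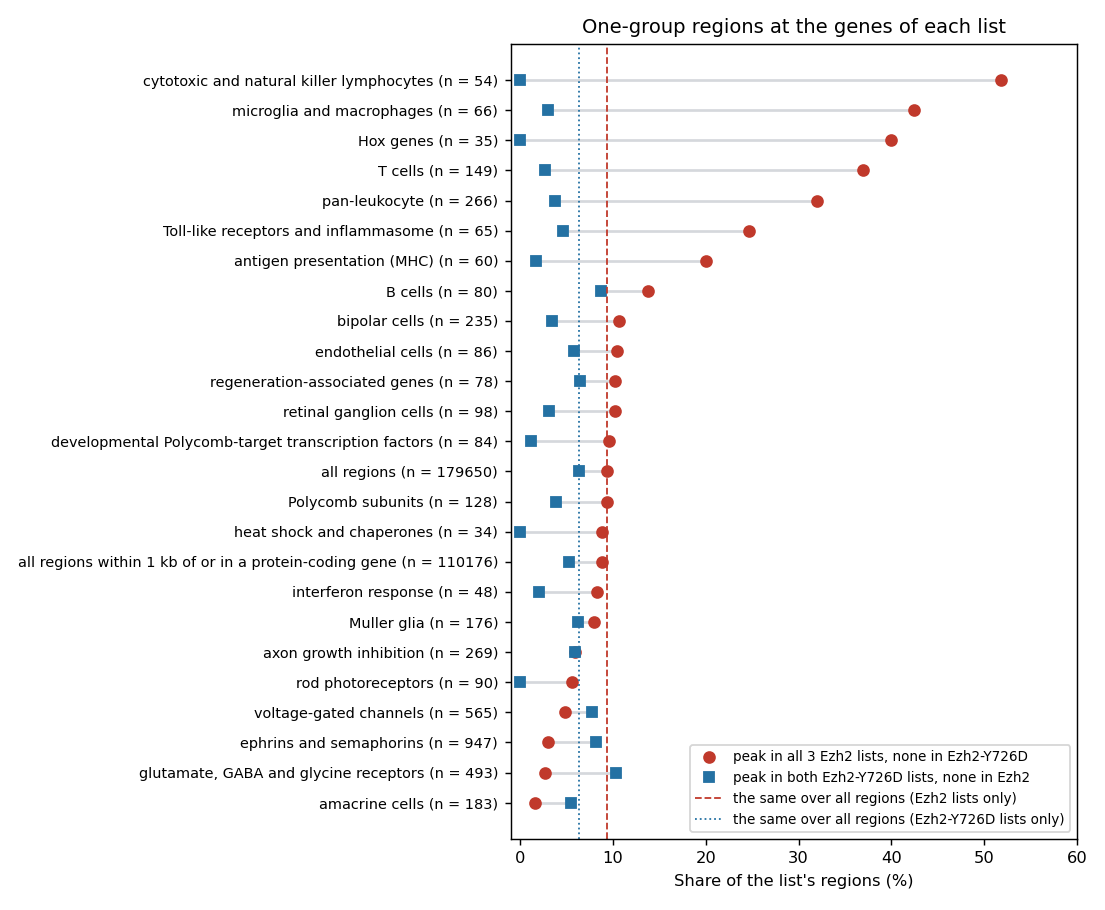
Share of each list's regions (x axis, %) that were Ezh2-only (circles) or Y726D-only (squares), with the number of regions in brackets and dashed and dotted lines at the shares over all regions. Cytotoxic lymphocyte, microglia, Hox and T cell lists reach 36.9% to 51.9% Ezh2-only, and receptor and guidance lists lie at or below 2.96%.

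**Figure D4:**
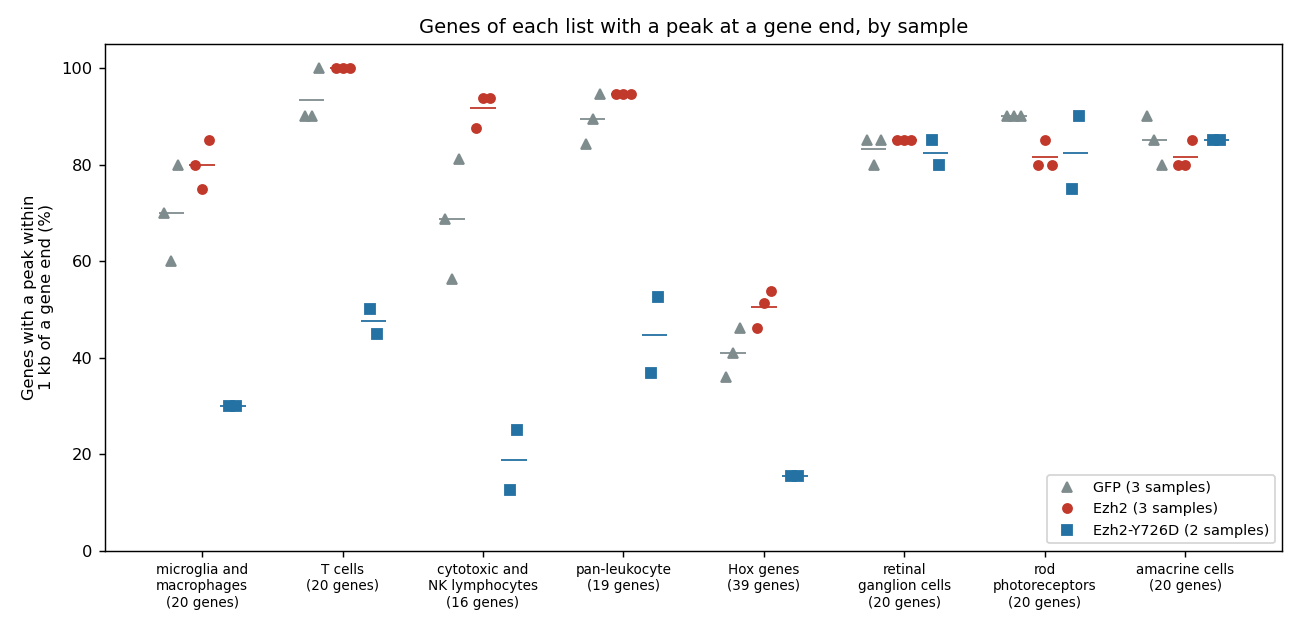
Percentage of the genes of 8 lists with a peak within 1 kb of a gene end (y axis), with 1 point per sample and a bar at the group mean. T cell genes lie at 100% in all Ezh2 samples and at a mean of 47.5% in Ezh2-Y726D samples, whereas the groups overlap or touch for RGC, rod and amacrine genes.

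Leukocyte genes did not move in 1 direction where all samples had a peak. Of 40 shared regions at T cell genes limma called 3 higher and 9 lower in Ezh2, of 57 at pan-leukocyte genes also 3 and 9, and of 27 at antigen presentation genes 0 and 5, against 5.20% and 4.86% of all shared regions. A region inside Icos, a costimulatory receptor, at chr1:60979031-60979779, had folds of 4.70, 4.82 and 4.81 in the Ezh2 samples and 11.9 and 10.2 in the Ezh2-Y726D samples (rank difference -1.78, limma adjusted p = 0.00752). Icos also had 1 region called higher. Within Cd4 a region had folds of 4.11, 4.04 and 5.45 against 9.15 and 8.80. The gene end of B2m, the light chain of MHC class I, had 7.16, 7.24 and 6.35 against 11.9 and 11.1, and the end shared by Psmb8 and Tap1, of the immunoproteasome and the peptide transporter, had 5.41, 5.52 and 5.08 against 11.3 and 8.75. Promoters of Cd27, Ltb and Cd180, surface molecules and a cytokine of lymphocytes chosen here from the promoters with the largest falls, differed by -1.75, -1.67 and -1.60. By contrast, the Themis promoter had folds of 9.03, 8.77 and 7.67 against 3.84 and 3.40.

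Neuronal receptor, guidance and channel genes had fewer Ezh2-only regions than the 9.40% over all regions. Their Y726D-only shares ran from above to near the 6.37% over all regions. At 20 genes of glutamate, GABA and glycine receptors 51 of 493 regions (10.3%) were Y726D-only and 13 (2.64%) Ezh2-only. Peaks covered 254, 263 and 297 of these regions in the Ezh2 samples and 367 and 377 in the Ezh2-Y726D samples, with 225 to 278 in GFP. The metabotropic receptor Grm8 had 10 Y726D-only regions, the kainate receptor Grik2 had 8, and the NMDA receptor subunit Grin2b had 7. Of 70 regions of Grm8 29, 28 and 32 had a peak in the Ezh2 samples and 50 and 53 in the Ezh2-Y726D samples. Every receptor gene had a peak at a gene end in all samples. Ephrin, semaphorin, Slit and netrin pathway genes had 77 of 947 regions (8.13%) that were Y726D-only and 28 (2.96%) that were Ezh2-only. The axon guidance receptors Robo1 and Robo2 had 10 and 8 Y726D-only regions, and Robo2 also had 7 Ezh2-only ones. Voltage-gated channels had 44 of 565 Y726D-only (7.79%) and 27 Ezh2-only regions (4.78%).

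Shared regions of neuronal genes were called in both directions. Of 233 shared channel regions 15 (6.44%) were higher and 4 (1.72%) lower, against 5.20% and 4.86% of all shared regions. Cacna1c, an L-type calcium channel, had a region with folds of 8.53, 7.85 and 8.07 in the Ezh2 samples and 3.54 and 4.61 in the Ezh2-Y726D samples (rank difference 1.87, limma adjusted p = 0.00998). Kcnd2, a potassium channel, had 6.11, 6.00 and 6.10 against 3.54 and 3.40. Cacna1c also had 2 regions called lower. Grin1, the obligatory NMDA receptor subunit, differed by 1.68, while a region in Grin2b differed by -1.40. In Grin2b 1 region was called higher and 3 lower. Of 362 shared regions at guidance genes 22 (6.08%) were higher and 15 (4.14%) lower. Ephb1 and Robo1 each had 1 higher region, which differed by 2.00 and 1.60, and 2 lower regions. A region of Sema3e fell by 1.66.

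Lists of retinal cell types had one-group shares near or below those over all regions (9.40% Ezh2-only and 6.37% Y726D-only), whereas shared regions of amacrine, rod and Müller glia genes were called higher in Ezh2 at larger shares than the 5.20% over all shared regions. RGC genes had 10 of 98 Ezh2-only regions (10.2%) and 3 Y726D-only ones. Thy1, the gene of the sorted antigen, and the neurofilament genes Nefl, Nefm and Nefh each had 1 region, with a peak in all 8 samples. Isl2, a transcription factor of RGC subtypes, had 3 regions with a peak in every Ezh2 and GFP sample and in neither Ezh2-Y726D sample. Pou4f1, a transcription factor of RGCs, had a gene end region with folds of 7.77, 7.11 and 7.33 against 4.32 and 4.97 (rank difference 1.29, limma adjusted p = 0.0129). In the other direction, a region inside Ebf3, also on the RGC list, differed by -1.41 (limma adjusted p = 0.0481). Of 48 shared regions at RGC genes 1 was called higher and 1 lower (2.08% each), below the shares over all shared regions. Amacrine genes had 3 Ezh2-only and 10 Y726D-only regions of 183, yet 8 of their 77 shared regions (10.4%) were higher and 0 lower in Ezh2. Among them were regions of Meis2 (1.81), the glycine transporter Slc6a9 (1.24), the eye regulator Pax6 (1.07) and the GABA-synthesizing enzyme Gad1 (0.83). Pax6 alone held 4 of the 8 higher regions, so much of this share came from 1 gene. Rod genes had 5 higher (9.80%) and 0 lower of 51. At Müller glia genes 8 of 69 (11.6%) were higher and 2 (2.90%) lower, and at bipolar genes 8 (7.84%) and 6 (5.88%) of 102, with 4.86% lower over all shared regions.

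Single genes were next ordered by their number of one-group regions. Foxp1, a forkhead transcription factor of neurons and lymphocytes, had the most Ezh2-only regions, 24 of 79, and peaks covered 53, 50 and 58 of the 79 in the Ezh2 samples, 22 and 25 in the Ezh2-Y726D samples and 35, 28 and 44 in the GFP samples. Wwox had 21 of 104, Akap13, an anchoring protein of protein kinase A, 19 of 50, Atxn1 18 of 81 and Arhgap26 17 of 143. Arhgap26 had nearly as many peaks in both groups, 92, 91 and 97 against 89 and 94. Lsamp, a cell adhesion molecule of neurons, had the most Y726D-only regions, 27 of 192, with peaks in 91, 97 and 112 regions of the Ezh2 samples and in 147 and 152 of the Ezh2-Y726D samples. Thsd4 followed with 19 of 76, the splicing regulator Rbfox1 with 17 of 132, the kinase gene Prkg1 with 16 of 126 and the synaptic scaffold Magi2 with 15 of 119. GFP samples had 97, 102 and 125 regions with a peak in Lsamp, nearer to Ezh2. Genes with many regions are long, and length was not adjusted for.

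**Figure D5:**
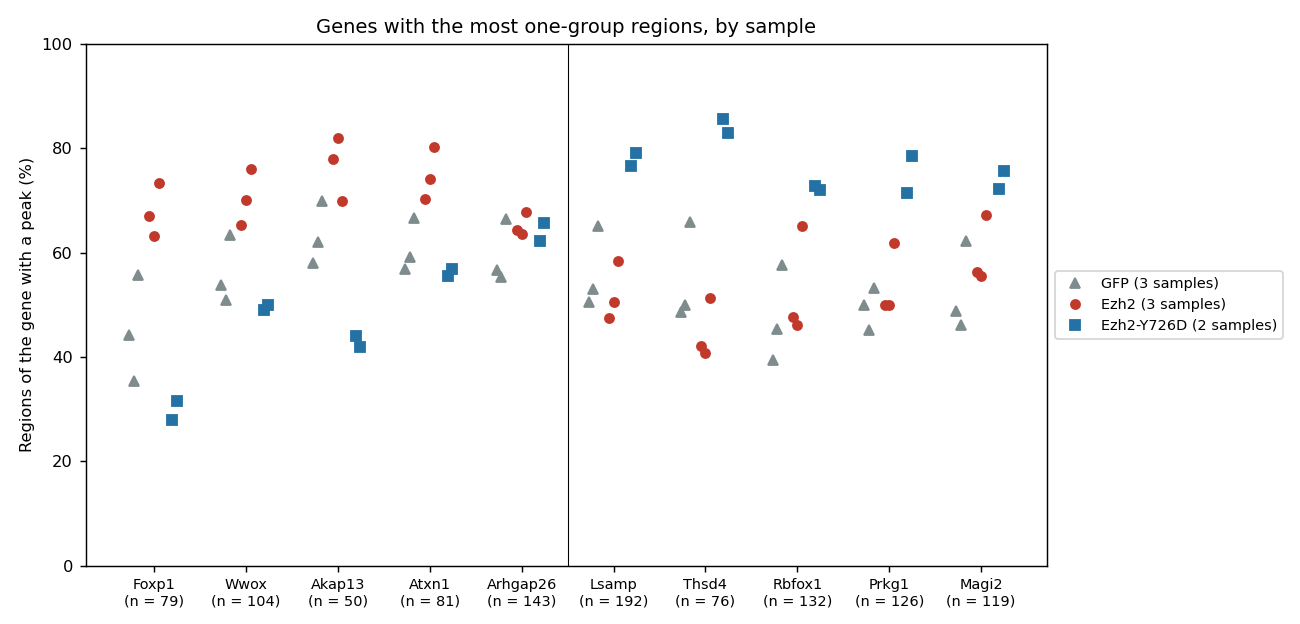
Percentage of the regions of a gene with a peak (y axis) in each sample, for the 5 genes with the most Ezh2-only regions (left) and the 5 with the most Y726D-only regions (right). All Ezh2 samples lie above both Ezh2-Y726D samples at Foxp1, Wwox, Akap13 and Atxn1 and below them at the 5 genes on the right, while at Arhgap26 the groups overlap.

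Along the genome the Ezh2-only share ran from 8.41% on chromosome 14 to 10.7% on chromosome 10, and the Y726D-only share from 5.36% on chromosome 11 to 7.23% on chromosome 3. Single windows of 1 Mb stood out from the median Ezh2-only share of 7.75% over 2123 windows. In the window starting at position 115000001 of chromosome 12, which holds 42 annotated V segments and no protein-coding gene, 23 of 39 regions (59.0%) were Ezh2-only. The neighbor before it, with 51 V segments, had 13 of 29. A window of chromosome 19 with the Ms4a family, membrane proteins of leukocytes, had 36 of 91, and one of chromosome 13 with Klf6 had 20 of 55. The chromosome 12 and 19 windows had at most 1 Y726D-only region each, while the Klf6 window had 8 (14.5%), against a median of 6.19% over the windows. The windows with the highest Y726D-only shares held few genes, among them Mgat4c (7 of 23), Pdzrn3 (16 of 53) and Sgcd (8 of 27).

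Hox genes, textbook targets of PRC2, had a peak in more of their regions in each Ezh2 sample than in either Ezh2-Y726D sample. Of 35 regions at the Hox clusters 14 (40.0%) were Ezh2-only and 0 Y726D-only, against 9.40% and 6.37% of all regions, and they came from all clusters, with 5 of 11 at Hoxa, 4 of 11 at Hoxb, 3 of 6 at Hoxc and 2 of 7 at Hoxd. Peaks lay in 30, 29 and 31 of the 35 regions in the Ezh2 samples, in 10 and 10 in the Ezh2-Y726D samples and in 18, 22 and 25 in the GFP samples. Of 39 Hox genes 18, 20 and 21 had a peak at a gene end in the Ezh2 samples and 6 in each Ezh2-Y726D sample (exact permutation test, p = 0.1, the smallest it allows, or 0.2875 after adjustment over the 23 lists). Of 8 shared Hox regions 3 were higher and 0 lower, against 5.20% and 4.86% of all shared regions. The Hoxb3 region had folds of 7.69, 8.98 and 8.17 against 3.54 and 3.15 (rank difference 2.41, limma adjusted p = 0.00698), and the one between Hoxa3 and Hoxa4 had 7.97, 9.23 and 7.48 against 3.84 and 4.85. Other developmental transcription factors under Polycomb control had 8 of 84 Ezh2-only regions (9.52%), with 0 higher and 2 lower of 35 shared.

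At Ezh2 itself, chromosome 6, 12 regions were found. Peaks lay in 8, 10 and 9 of them in the Ezh2 samples, in 4 and 4 in the Ezh2-Y726D samples and in 3, 4 and 6 in the GFP samples. Of the 12 regions 5 were Ezh2-only, and 3 of these had no peak in any GFP list. The region at the gene end upstream, chr6:47594045-47595702, did not separate the groups, with folds of 9.52, 9.37 and 9.16 against 10.3 and 10.8 (rank difference -0.12, limma adjusted p = 0.68). Reads from vector DNA and from the chromosome cannot be told apart in peak lists. Among 23 Polycomb subunit genes 12 of 128 regions (9.38%) were Ezh2-only, 5 of them at Ezh2 itself, against 9.40% of all regions. Eed and Suz12 each had 1 region with a peak in all 8 samples, and regions of Phc2 and of Ezh1, the paralog of Ezh2, ranked 1.02 and 0.85 higher in Ezh2.

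Genes that restrain or support axon growth showed no common direction. At 19 inhibitory genes 16 of 269 regions were Ezh2-only and 16 were Y726D-only, 5.95% each, against 9.40% and 6.37% of all regions. Over regions in or within 1 kb of a protein-coding gene these shares were 8.77% and 5.30%. Lingo3, a paralog of Lingo1, had 3 regions and Omg, a myelin glycoprotein, 2 that were open in all 5 samples and not called. Slc6a13, a GABA transporter, had 2 Y726D-only regions of 6. Of 124 shared regions 10 (8.06%) were higher and 5 (4.03%) lower, including regions of the matrix protein Tnr (1.95) and of Wfdc1 (1.30) upward and of Lingo1 (-1.39) and Epha7 (-1.20) downward. Lingo1 also had 1 region called higher. Regeneration-associated genes had 8 Ezh2-only and 5 Y726D-only regions of 78. Stat3, a transcription factor of cytokine signaling, had 4 of the former, while its called region fell by 0.85, with folds of 8.52, 7.48 and 6.40 against 11.2 and 11.4. A region inside Thbs1 rose by 0.85, with folds of 4.54, 4.66 and 3.87 against 3.50 and 3.32. Of 38 shared regions of this list 1 was higher and 1 lower (2.63% each), against 5.20% and 4.86% of all shared regions. Spp1, osteopontin, had 2 regions, with peaks in 1, 1 and 2 of them in the Ezh2 samples and none in the Ezh2-Y726D samples. Jun, Fos and Gadd45a each had 1 region that was open in all 8 samples.

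Called regions of heat shock and chaperone genes were lower in Ezh2. Of 16 shared regions 4 (25.0%) were lower and 0 higher, against 4.86% and 5.20% of all shared regions. Of all 34 regions of the list 3 (8.82%) were Ezh2-only, 2 of Hsph1 and 1 of Hspa1a, and 0 were Y726D-only. The ends of Hspa1b and of Dnajb1, an Hsp40 cochaperone, had folds of 5.32, 5.64 and 4.93 against 10.6 and 10.3 and of 7.20, 6.94 and 5.97 against 11.0 and 10.5, with limma adjusted p of 0.00988 and 0.0269. Hspa1a and Hspa1l share 1 such region. Hspa1a and Hspa1b encode near-identical proteins, and reads placed between them are uncertain.

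Promoters, taken as the 300 base windows described with the sequences, were overlapped by 11270 regions. Of these 372 (3.30%) were Ezh2-only and 65 (0.577%) Y726D-only, below the shares over all regions in both cases. Of 10243 shared promoter regions 162 (1.58%) were higher and 123 (1.20%) lower. Ezh2-only promoters are named here in order of mean percentile, with values for a pair of them, a choice made after values were seen. The Ctla2b promoter region, shown above with its TGACTCA match, had folds of 10.8, 9.58 and 9.81 in the Ezh2 samples and percentiles of 92.2 to 92.6 in GFP. That of F2rl2 had 10.0, 9.54 and 9.68 and lower GFP percentiles of 20.1, 15.0 and 67.2. After F2rl2 the order was Ctla2a, Wdfy4, Cysltr2, Lat, an adaptor of T cell receptor signaling, Sp140, Gzmb, Naip2, Fam124b, Il12rb2, an interleukin receptor subunit, Phf11b and Tnfsf10, the death ligand TRAIL. In the reverse class P2ry12 had folds of 6.03 and 5.70 at a narrow region of 378 bp, although P2ry12 is on the microglia list. Of its 9 regions 2 were Y726D-only, 1 was Ezh2-only and 1, shared by all samples, was higher in Ezh2.

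The sequences of one-group promoters differed from those of all promoters. Of 400 promoter windows in Ezh2-only regions 26.8% held GAGGAAG, 10.5% TGTGGTT and 10.0% TGACTCA, against 13.2%, 4.77% and 4.70% of all 20084 windows. The GC box GGGCGG was in 25.8% of Ezh2-only and 26.9% of Y726D-only windows against 47.0% of all, and the median GC content was 50.5% and 53.3% against 57.0%. Windows in shared regions that were not called held GAGGAAG in 12.3%. Of 67 windows in Y726D-only regions 4 (5.97%) held GAGGAAG and 1 (1.49%) TGTGGTT. The E-box letters CAGATG were in 28.4% of the Y726D-only and 21.8% of the Ezh2-only windows, against 14.6% of all. Part of this was not particular to one-group promoters. Of 632 windows in regions that were neither one-group nor shared by all 5 lists, 34.0% held the GC box, 20.6% CAGATG and 16.3% GAGGAAG. Their median GC content was 53.7%. These shares describe letters in the window and carry no test, and windows of 1 gene can overlap.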

How the data were processed

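ATAC-seq peaks had been called in each sample separately, and 1 narrowPeak list per sample was deposited. The submitters' processing notes name cutadapt, Bowtie2, SAMtools, Picard, MACS2, deepTools and GRCm38, without versions. The deposited fold is the ratio of summit pileup to local background. The −log10 p-value of a peak, and the −log10 q-value adjusted from it, were deposited as the peak caller gave them, and the deposited score, a rescaled −log10 q, and summit distance were not used as results. Lists differ in depth, which is unknown. A library with a lower background can lose weak peaks, so absence of a peak is not absence of open chromatin.

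Peaks on chromosomes 1 to 19 were merged at an overlap of at least 1 bp. Regions with a peak in all lists of 1 group and in none of the other were counted. Regions with a peak in all 5 lists were ranked by their highest fold within each list, turned into normal scores and compared with limma 3.58.1 (R 4.3.3; lmFit and eBayes, Benjamini-Hochberg adjustment over all 76271 regions). Single values were compared by an exact permutation test, two-sided, that assigned the 5 samples to the groups in all 10 ways. Intervals were handled with numpy 2.4.6 and pandas 2.3.3, tests with scipy 1.17.1. The scripts were tested on simulated data.

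Genes and promoters came from RefSeq tables for GRCm38.p6, with 20661 protein-coding genes, and 463 of 473 list genes were matched on these chromosomes. A gene end is either end of the gene, within 1 kb. A region was assigned to genes it overlapped within 1 kb, otherwise to the nearest gene end. Named are Ezh2, per direction the 5 one-group regions with the highest mean percentile, the 5 called regions with the largest difference overall and at gene ends, the 5 genes and 5 windows of 1 Mb (at least 20 regions) with the most one-group regions, and up to 4 genes per list with the largest called difference. Some genes and windows that this rule names are not reported here. Members and lists were chosen with earlier results of these data known. Alternatives covered peak thresholds, list length, overlap, ranking, the samples in the fit, the replicate block and gene end width.

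Replicate numbers in the titles are shared by 2 pairs of samples, and their deviations from the group means had correlations of -0.0013 and 0.00042. Pairs by the number in the peak names had -0.00042 and -0.0016. With 2 Ezh2-Y726D samples their deviations are exact opposites, so these values are not separate and cannot settle whether samples were paired. The numbers are not known to pair samples, and samples were not treated as paired.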

Additional observations from a re-analysis of the deposited data

How the results depend on the processing

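Ezh2-only regions numbered 19280 to 20734 when 1 sample was left out in turn (19280 and 20734 without Ezh2-Y726D replicates 1 and 2), and Y726D-only regions 12896 to 21525. The counts by coverage of 0.5, by a −log10 q of at least 5, by lists of equal length and by regions merged from all 8 lists stayed within 1.5 times the counts reported. Of the regions higher in Ezh2 limma called 0 to 2415, and of those lower 0 to 2400, with 1 sample left out; the 0 belongs to each Ezh2-Y726D replicate. Ranking by −log10 p gave 1952 lower regions, and the within-list percentile gave 2340 higher and 1708 lower. With the replicate block by the number in the peak names limma called 0 in each direction (8741 higher and 9523 lower at an unadjusted p under 0.05), and with the replicate block by the number in the titles 2711 and 2755. The numbers are not known to pair samples, and the cause was not tested. Of 100 called regions checked by name none changed direction in any fit that included it, and 0 kept their call without either Ezh2-Y726D replicate. These regions were picked for large called differences, and every fit reused the same samples, so an unchanged direction says little about stability. Covered sequence differed by 0.858 Mb and reversed with 1 sample left out, to -1.88 without Ezh2 replicate 3 and -2.09 without Ezh2-Y726D replicate 1 (range -2.09 to 3.81). With gene ends of 3 kb the difference at gene ends reversed to -0.833 percentage points for RGC genes and to 0.833 for amacrine genes, and with 1 sample left out it ranged from -8.33 to 6.67 for rod genes (6.67 without Ezh2-Y726D replicate 2) and from -2.22 to 11.1 for endothelial genes (-2.22 without Ezh2-Y726D replicate 1). Of the recomputed one-group shares of the gene lists 384 stayed within the 95% binomial interval of the reported share and 30 did not. That interval treats regions as independent, and the recomputed shares reuse the same peak lists. It therefore gives no measure of the spread between samples. With 2 samples in 1 group, little can be said of differences smaller than those called.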
